A study of Orbilia oligospora ATCC 24927 with 24 samples.

Results

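The genes described here encode proteins of the mitochondrial ribosome of Arthrobotrys oligospora, a fungus that forms traps on its hyphae and feeds on nematodes. They were chosen by name alone: the Swiss-Prot match in the deposited annotation had to name a 37S, 54S, 28S or 39S ribosomal protein, or to hold both "ribosomal protein" and "mitochondrial". This found 53 of the 11479 annotated genes, 32 of the large (54S) subunit and 21 of the small (37S) subunit. The words were matched as spelled, which left out AOL_s00112g16, named Ribosomal protein S16, mitochondrial, with a capital. All 53 had values in both experiments and passed the filter on low values in both.

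RNA-seq libraries were made from hyphae of strain ATCC 24927 and mutants of it, grown on potato dextrose agar at 28 °C. In the PkaC1 experiment a strain lacking AoPkaC1 by its label, which encodes a catalytic PKA subunit (the kinase that cAMP activates), was sampled at 12 h of trap induction with nematode extract and untreated (0 h), beside wild type at 12 h and 0 h. The Acy experiment had the same layout with a strain lacking AoAcy by its label, the gene of the adenylate cyclase that makes cAMP, and with its own wild type. Each of the 8 groups had 3 libraries. The labels do not say whether these came from separate cultures, so p-values measure the spread between these libraries, which may be technical. No strain was sampled untreated at 12 h, so the extract and the passage of 12 h cannot be told apart.

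Values are length-normalized transcript abundances (TPM), as the authors deposited them. TPM keep no read totals, so the depth of each library is unknown and no counting interval can be given. The adenylate cyclase gene AOL_s00080g284 was listed in every library labelled as an Acy deletion, at 10.3 ± 0.906 TPM against 16.5 ± 0.777 TPM in wild type at 0 h and at 11.6 ± 1.31 TPM against 13.3 ± 2.14 TPM at 12 h (mean ± SD, n = 3 each). Both genes matched to a PKA catalytic subunit were also listed in every library labelled as a PkaC1 deletion. Their summed level, which does not show either gene alone, was 99.76 ± 9.04 TPM against 126.6 ± 1.78 TPM in wild type at 0 h. At 12 h it was 50.05 ± 1.01 TPM against 76.25 ± 2.31 TPM. Which part of each gene was removed is not given in the sources used here. These levels therefore check the labels only in part, and "deletion" below stands for the label. The design text of the series speaks of a different mutant, AorlmA, which no sample label names; groups were taken from the sample labels. In the PkaC1 experiment 9 of the 53 genes were listed at exactly 0 TPM in at least 1 library, 2 to 4 genes per deletion library at 12 h, 4 to 7 per deletion library at 0 h, none in wild type at 12 h and 1 to 2 per wild-type library at 0 h. No gene of the group was listed at 0 in the Acy experiment. The PkaC1 experiment also listed 1568 assembled loci without a gene name, with 1.69 to 2.77% of the TPM of a library. The Acy experiment listed none. Whether reads of genes at 0 were assigned to such loci was not tested. An exact 0 can be a failed estimate, so such genes are given library by library, and no fold is given against a group listed at 0. Libraries that share an exact 0 have no spread, so p-values against such a group also depend on the pseudocount.

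Mitochondria keep a small genome of their own and translate its few messages, mostly subunits of the respiratory chain, on a ribosome of bacterial descent. Nearly all proteins of that ribosome are encoded in the nucleus, made on cytosolic ribosomes and imported. Many have bacterial relatives, others exist only in mitochondria, and fungal mitochondrial ribosomes differ in composition from those of animals. The 53 genes matched 53 distinct Swiss-Prot entries, 28 of them from Saccharomyces cerevisiae and 19 from Schizosaccharomyces pombe. By the first protein domain in the annotation, 34 carried a domain of general ribosomal proteins, 13 a domain particular to mitochondrial ribosomal proteins and 6 another domain or none. Of these 6, 37S S26 (AOL_s00076g69) carried the domain and orthology name of manganese superoxide dismutase. Both AOL_s00006g347 and AOL_s00097g624 were named L23; by orthology AOL_s00006g347 is the relative of bacterial L23 and AOL_s00097g624 that of bacterial L13. Coding lengths ran from 285 to 2214 bases, with a median of 765. Roles given below are those known for the yeast or bacterial relatives.

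Their messages were present at moderate levels, and nearly all were highest in the same group of each experiment. Summed over the 53 genes, the level in the PkaC1 experiment was 3050.0 ± 246 TPM in deletion at 12 h, 2639 ± 424 TPM in deletion at 0 h, 6201 ± 68.6 TPM in wild type at 12 h and 2985 ± 43.7 TPM in wild type at 0 h (mean ± SD, n = 3 each). Induced wild type was thus near 0.620% of all TPM and stood far above the other 3 groups, whose libraries overlapped in part. The sums of the Acy experiment were 5015 ± 231 TPM in deletion at 12 h, 5320.0 ± 377 TPM in deletion at 0 h, 6146 ± 822 TPM in wild type at 12 h and 7909 ± 704 TPM in wild type at 0 h. There untreated wild type was the highest group, and both deletion groups overlapped each other. The tables of the 2 experiments were normalized separately, so levels are not compared between them by a test.

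**Figure D1:**
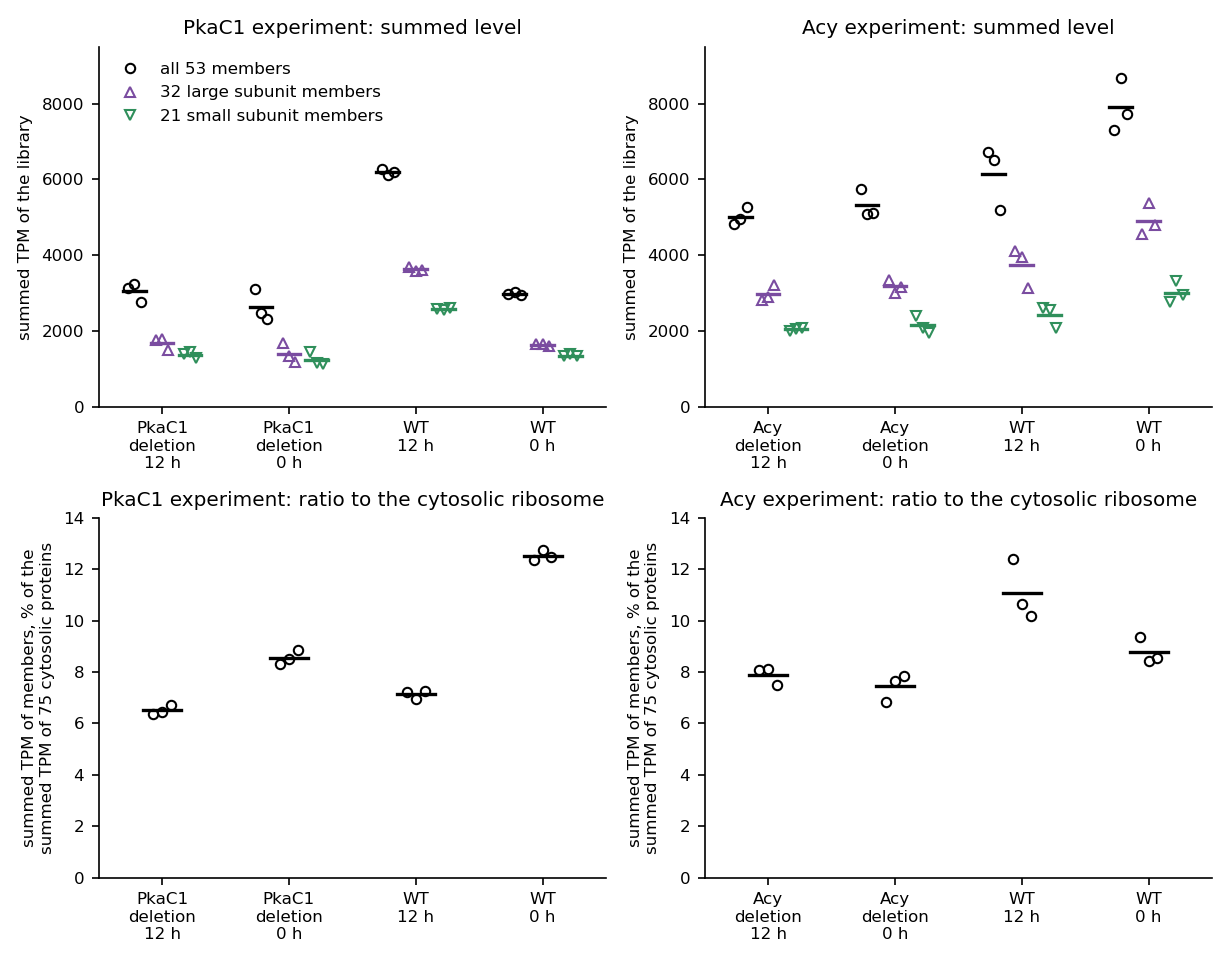
Summed TPM of the 53 mitochondrial ribosomal protein genes, and of those of the large and small subunit, in each library (top), and their sum as a percent of the sum of 75 cytosolic ribosomal protein genes (bottom), for the PkaC1 experiment (left) and the Acy experiment (right). The 3 libraries of wild type at 12 h in the PkaC1 experiment lie between 6130 and 6267 TPM, above all other libraries of that experiment, and in the Acy experiment the wild type at 0 h lies between 7314 and 8686 TPM.

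Levels, which TPM give per length, differed widely between members. 37S S19 (AOL_s00215g802), a protein of the head of the small subunit, had the highest mean level in both experiments. In the PkaC1 experiment it stood at 256 ± 28.9 TPM in deletion at 12 h, 215 ± 57.0 in deletion at 0 h, 423 ± 17.2 in wild type at 12 h and 249 ± 13.5 in wild type at 0 h. For Acy the values were 389 ± 54.8 TPM in deletion at 12 h, 512 ± 65.5 in deletion at 0 h, 575 ± 219 in wild type at 12 h and 631 ± 93.9 in wild type at 0 h. The next in both were 54S L31 (AOL_s00215g849), a large-subunit protein known from fungi, and 54S L8 (AOL_s00188g29), the relative of bacterial L17. They were followed by 37S S25 and 37S mrp2 in the PkaC1 experiment and by 54S L23 (AOL_s00006g347) and 54S L4 in the Acy experiment. The lowest means in the Acy experiment were those of 37S S23, 54S yml6 and 37S S18, for example 32.7 ± 3.05 TPM for yml6 in deletion at 12 h and 35.8 ± 7.26 TPM in wild type at 0 h. In the PkaC1 experiment the lowest were 37S S10, 54S L33 and 54S L28, all of them genes with libraries at 0.

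The group with the highest mean was shared by nearly all members, while the lowest group differed among them. In the PkaC1 experiment the highest of the 4 group means was wild type at 12 h for 53 of 53 genes, and the lowest was deletion at 0 h for 25, deletion at 12 h for 19 and wild type at 0 h for 9. For Acy it was wild type at 0 h for 51 of 53 genes, and the lowest was deletion at 12 h for 25 and deletion at 0 h for 23. Over the 1378 pairs of members, the median Pearson correlation of the 4 group means was 0.877 for PkaC1 and 0.893 for Acy. This is a description over 4 points that share their libraries. The same value for pairs of other genes was not computed, so it is not read as a trait of the members. Replicates were much closer in some groups than in others. The median coefficient of variation of members at 10 TPM or more was 13.0% in deletion at 12 h, 19.4% in deletion at 0 h, 4.07% in wild type at 12 h and 5.67% in wild type at 0 h of the PkaC1 experiment. The Acy values were 8.62% in deletion at 12 h, 17.1% in deletion at 0 h, 10.8% in wild type at 12 h and 12.5% in wild type at 0 h.

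**Figure D2:**
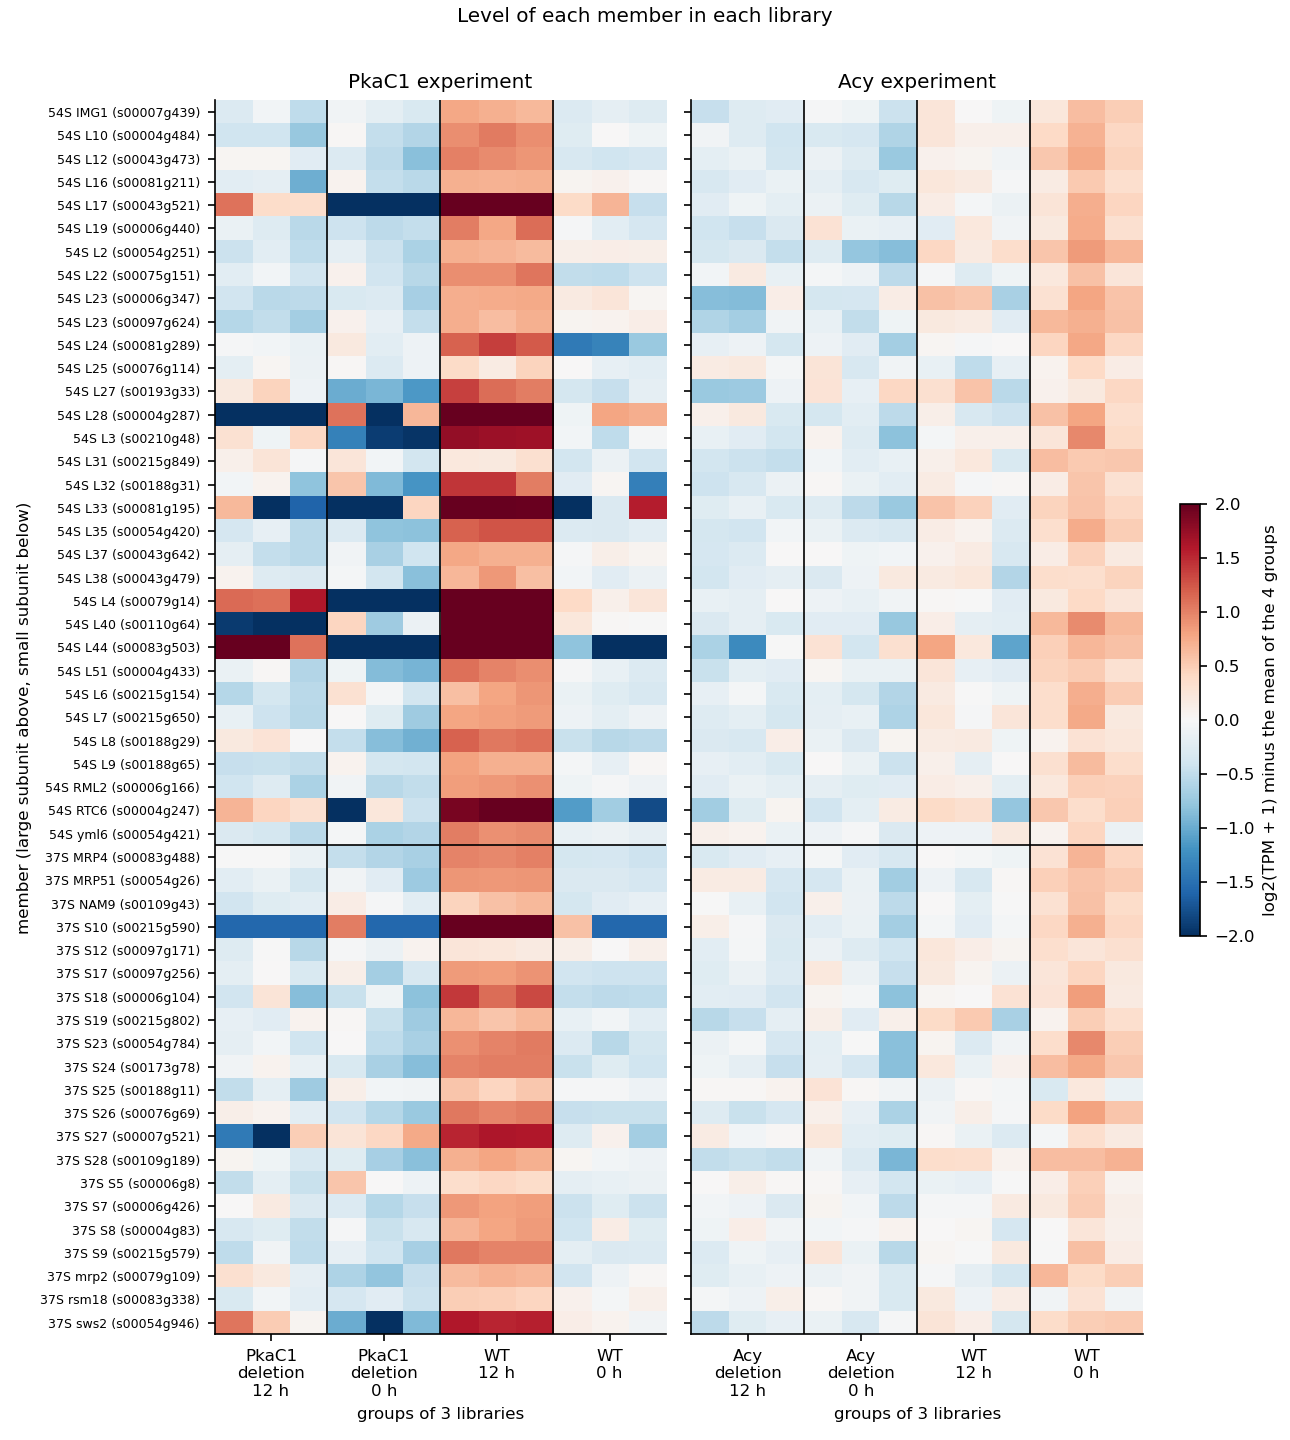
Level of each of the 53 genes (down the page) in each library (across), as log2(TPM + 1) minus the mean of the 4 groups of that experiment, for the PkaC1 experiment (left) and the Acy experiment (right). The columns of wild type at 12 h in the PkaC1 experiment and of wild type at 0 h in the Acy experiment are high for nearly all genes, and a few genes of the PkaC1 experiment depart strongly from the rest.

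The first comparison asked how wild type responded to 12 h of induction in the PkaC1 experiment. Genes of both subunits were higher together: of 53 members, 50 rose and none fell by limma on log2(TPM + 1), with a Benjamini-Hochberg adjusted p under 0.05 over all genes tested, against 28.1% of all tested genes called higher and 41.6% called lower. All 32 members of the large subunit and 18 of 21 of the small subunit rose. The median log2 fold change of the members was 1.18, beside -0.16 over all tested genes. All 3 libraries at 12 h were above all 3 at 0 h for 53 of 53 members, against 33.7% of all genes. The 3 genes that did not pass were 37S S27 (1.87 ± 0.870 SE, adjusted p = 0.0751), 37S sws2 (1.52, adjusted p = 0.0914) and 37S S12 (0.13, adjusted p = 0.314).

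Among the genes with the largest increases was 54S L44 (AOL_s00083g503), the MRPL53 relative of the large subunit. It stood at 109, 103 and 102 TPM in wild type at 12 h, against 5.34, 1.16 and 0 TPM at 0 h. All induced libraries were far above the untreated ones, of which 1 was listed at 0 (limma adjusted p = 8.01e-06). 37S S10 (AOL_s00215g590), relative of bacterial S10 in the head of the small subunit, stood at 26.4, 22.4 and 27.1 TPM at 12 h, against 3.49, 0 and 0 TPM at 0 h. It was thus listed above 0 in every induced library and in 1 of the 3 untreated ones (adjusted p = 0.000276). 54S RTC6 (AOL_s00004g247), relative of bacterial L36, stood at 53.1, 56.7 and 73.2 TPM at 12 h, against 5.67, 7.98 and 3.20 TPM at 0 h, without overlap (3.28 ± 0.795 SE, adjusted p = 0.00307). Its call was lost with a pseudocount of 0.1 TPM (adjusted p = 0.0503) and with the wild-type libraries of a time averaged into 1 (0.188). 54S L4 (AOL_s00079g14), the MRPL47 relative at the exit of the peptide tunnel, was detected in every wild-type library. In deletion at 0 h it was listed at 0 TPM in all 3 libraries. In wild type it stood at 143, 154 and 139 TPM at 12 h, against 26.1, 21.1 and 23.3 TPM at 0 h. The libraries of the 2 times lay far apart (2.58 ± 0.129 SE, adjusted p = 8.79e-09). Of the most abundant genes, S19 rose by 0.76 ± 0.151 SE on the log2 scale (adjusted p = 0.000786), L31 by 0.54 (adjusted p = 0.00432) and L8 by 1.62 (adjusted p = 1.46e-07).

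Without the 9 genes listed at 0 in some library, 43 of 44 rose with a median of 1.03. With every library scaled to the same median TPM, 52 of 53 rose (37.5% of all genes), with a median of 1.41 beside 0.02 over all genes. The authors' deposited table of this comparison gave 52 higher (38.6% of all genes) and none lower (39%), with a median log2 fold change of 1.45, and at an unadjusted p under 0.05 limma likewise gave none lower. The share of all genes at an unadjusted p under 0.05 was not counted, here or below. Averaging the wild-type libraries of a time into 1 left 30 calls (13.5% of all genes). Markers of conidiation (spore formation; 6 genes, among them regulators of the brlA and abaA type) summed to 88.3 to 91.2 TPM at 12 h, against 368 to 398 TPM at 0 h, with 4 of 6 lower; their part in the result was not tested.

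**Figure D3:**
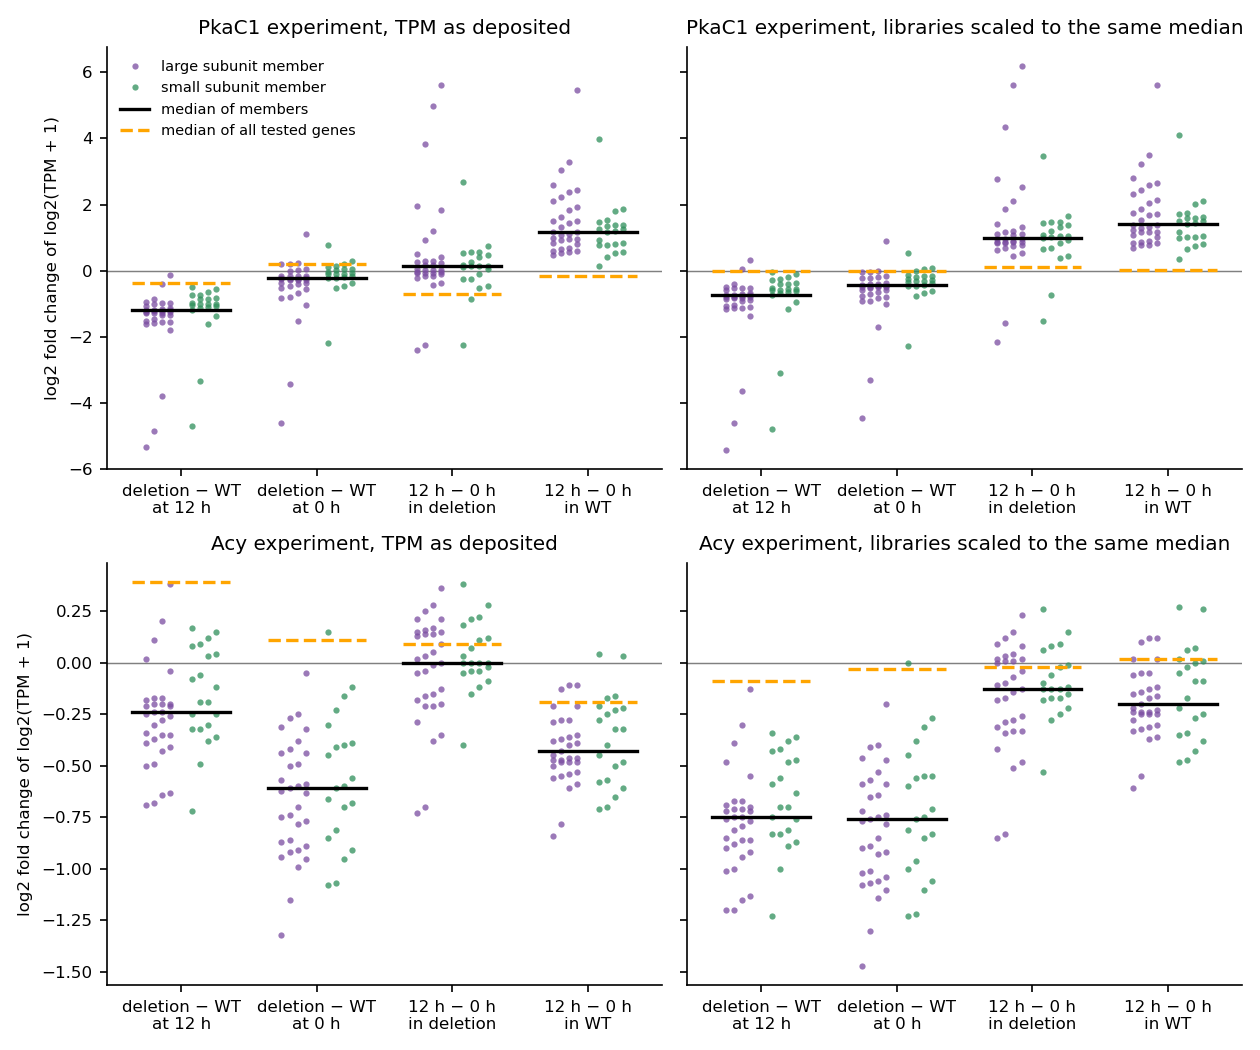
Log2 fold change of each of the 53 genes (points) in each comparison on the log2(TPM + 1) scale, for TPM as deposited and after scaling every library to the same median TPM, in the PkaC1 and the Acy experiment. Short lines mark the median of the members and the median of all tested genes. The members' median is 1.18 for induction of wild type and -1.19 for deletion against wild type at 12 h in the PkaC1 experiment, both on the deposited scale. Points far from the rest in the PkaC1 experiment include genes listed at 0 in a whole group, whose position depends on the pseudocount.

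At 12 h of induction, the PkaC1 deletion held less of these messages than wild type. Of 53 members, 49 fell and none rose (limma, adjusted p under 0.05), against 52.0% of all tested genes called lower and 18.9% called higher. The median log2 fold change was -1.19 over the members, beside -0.39 over all genes, and all 53 estimates were below 0. Of the large subunit 29 of 32 fell (median -1.26), and of the small subunit 20 of 21 (median -1.02). All deletion libraries were below all wild-type libraries for 52 of 53 members, against 55.1% of all genes. In RNA from whole hyphae, fewer cells of a kind and less RNA per cell cannot be told apart.

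Genes at the lower end included 2 listed at 0 in every deletion library and 1 listed near 0. 54S L28 (AOL_s00004g287), the MRPL40 relative of the large subunit, was listed at 0 TPM in all 3 deletion libraries, against 38.0, 35.7 and 44.5 TPM in wild type (adjusted p = 6.94e-05). S10 was likewise listed at 0 TPM in all 3 deletion libraries, against 26.4, 22.4 and 27.1 TPM in wild type (adjusted p = 8.74e-05). 54S L40 (AOL_s00110g64), relative of bacterial L24, which lies near the tunnel exit, stood at 2.48, 2.22 and 0.400 TPM in deletion, against 66.6, 75.1 and 72.0 TPM in wild type. It was detected in every library, with the 2 groups far apart (-4.85 ± 0.333 SE, adjusted p = 3.04e-07). Under the Acy deletion, L28, S10 and L40 did not pass at 12 h, with log2 fold changes of deletion against wild type of 0.20 ± 0.182 SE, 0.04 ± 0.167 SE and -0.17 ± 0.162 SE and adjusted p of 0.349, 0.86 and 0.39. In PkaC1 deletion at 0 h L40 stood at 16.7, 7.03 and 11.1 TPM.

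The quartiles of the members' log2 fold changes were -1.38 and -0.99. L4 stood at 44.1, 42.8 and 61.0 TPM in deletion, against 143, 154 and 139 TPM in wild type, without overlap (-1.56 ± 0.129 SE, adjusted p = 1.28e-06). 54S L17 (AOL_s00043g521), the MRPL46 relative, stood at 19.0, 11.2 and 11.0 TPM in deletion, against 49.6, 48.2 and 49.7 TPM in wild type, also without overlap (-1.81 ± 0.264 SE, adjusted p = 8.48e-05). S19 differed by -0.73 (adjusted p = 0.00107) and L8 by -0.95 (adjusted p = 1.94e-05). The 4 genes that did not pass were RTC6, L44, L31 and 37S sws2, with log2 fold changes of -1.61, -1.28, -0.13 and -1.02 and adjusted p of 0.09, 0.0807, 0.407 and 0.243. L31, the second most abundant member, thus stood at 229 ± 22.5 TPM in deletion and 251 ± 11.9 TPM in wild type.

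Without the 9 genes with libraries at 0, 43 of 44 fell, with a median of -1.11. With libraries scaled to the same median, 45 fell (32.1% of all genes) and 1 rose (31.8%), with a median of -0.74 beside 0.00 over all genes; scaling turned the direction of L31 (0.33, adjusted p = 0.0135, called higher) and of 54S L25 (-0.42 as deposited, 0.04 scaled). The authors' deposited table gave 49 lower (31.8% of all genes) and none higher (32.6%), with a median of -0.82, and at an unadjusted p under 0.05 limma gave none higher. The conidiation markers summed to 226 to 263 TPM in deletion, against 88.3 to 91.2 TPM in wild type at 12 h, with 4 of 6 higher and 1 lower and 0 to 1 of them listed at 0 per library; their part in the result was not tested.

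Without induction, most members did not pass the test between PkaC1 deletion and wild type, and a few differed strongly. Of 53 members, 14 fell and 1 rose (limma, adjusted p under 0.05), against 24% of all genes called lower and 40.7% called higher. The members' count of lower calls was thus near the share of all genes. Members had a median log2 fold change of -0.22, beside 0.20 over all genes. Large-subunit genes made up 9 of the lower calls and the single higher one. The libraries did not overlap for 13 members lower and 3 higher in deletion, against 25.5% and 43.1% of all genes. The 13 lower ones were again near the share of all genes.

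The largest estimates were in genes with deletion libraries listed at 0, so their sizes and p-values depend on the pseudocount. L4 was listed at 0 TPM in all 3 deletion libraries, against 26.1, 21.1 and 23.3 TPM in wild type (adjusted p = 1.8e-10). L17 was listed at 0 TPM in all 3 deletion libraries, against 11.2, 14.1 and 5.83 TPM in wild type (adjusted p = 5.41e-07). Both genes were detected in every deletion library at 12 h. 37S sws2 (AOL_s00054g946), relative of bacterial S13, stood at 10.8, 0 and 11.8 TPM in deletion, against 24.8, 23.8 and 21.3 TPM in wild type. All deletion libraries were lower, and 1 was listed at 0 (-2.19 ± 0.750 SE, adjusted p = 0.0236). That call was lost with a pseudocount of 0.1 TPM (adjusted p = 0.0596), without a filter (0.0549), with the wild-type libraries of a time averaged into 1 (0.263) and without wild type 0 h replicate 1 (0.0574) or 2 (0.0547). The single gene that rose was 54S L24 (AOL_s00081g289), relative of bacterial L28, at 33.3, 24.9 and 26.8 TPM in deletion, against 10.3, 10.9 and 16.9 TPM in wild type. The groups did not overlap (1.12 ± 0.163 SE, adjusted p = 0.000105).

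Of genes without any library at 0, 54S L3 (AOL_s00210g48), which carries a double-stranded RNA binding motif, fell by 1.54 on the log2 scale (adjusted p = 2.34e-05). Scaling to the same median raised the count of lower calls to 33 (33.1% of all genes) with 1 higher (29.7%), at a median of -0.43 beside -0.01 over all genes, and turned the direction of 10 members. The authors' deposited table gave 32 lower (31.0% of all genes) and 1 higher (30.7%), with a median of -0.42. The count of lower calls was 25 without deletion replicate 1, 9 without wild type replicate 2, and 3 if the wild-type libraries of a time are averaged into 1 (13.4% of all genes). The count of higher calls was 5 without deletion replicate 3 and 2 without deletion replicate 1. For refits without 1 library, here and below, the share of all genes called is not given. Whether calls moved for all genes as well cannot be read from these counts. The conidiation markers summed to 268 to 336 TPM in deletion, against 368 to 398 TPM in wild type, with 3 of 6 higher and 1 lower; their part in the result was not tested.

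Within the PkaC1 deletion, 12 h of induction moved members in both directions. Of 53 members, 14 rose and 8 fell (limma, adjusted p under 0.05), against 19.4% of all genes called higher and 62.2% called lower. Members had a median of 0.13 on the log2 scale, beside -0.72 over all genes. Both subunits gave the same counts, 7 higher and 4 lower. The libraries did not overlap for 13 members higher and 6 lower at 12 h, against 18.3% and 60.7% of all genes.

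The largest increases were in genes near or at 0 in untreated deletion. L4 stood at 44.1, 42.8 and 61.0 TPM at 12 h and was listed at 0 TPM in all 3 libraries at 0 h (adjusted p = 2.31e-11). L17 stood at 19.0, 11.2 and 11.0 TPM at 12 h and was likewise listed at 0 TPM in all 3 at 0 h (adjusted p = 8.25e-08). L44 stood at 59.5, 56.7 and 22.6 TPM at 12 h, against 1.67, 0 and 0 TPM at 0 h (adjusted p = 1.21e-05). All 3 genes were detected in each induced library, and L44 in 1 of the 3 untreated ones. Among genes with no library at 0, L3, 54S L27 (AOL_s00193g33; the MRPL41 relative) and L8 rose by 1.95, 1.20 and 0.93 on the log2 scale, with adjusted p of 1.42e-06, 7.17e-06 and 1.23e-05.

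In the other direction, L28 was listed at 0 TPM in all 3 libraries at 12 h, against 13.2, 0 and 9.54 TPM at 0 h, so that 1 untreated library was at 0 as well (adjusted p = 0.0113). That call was lost without deletion 0 h replicate 1 (adjusted p = 0.0562) or 3 (0.0511) and with the wild-type libraries of a time averaged into 1 (0.0555). L40 stood at 2.48, 2.22 and 0.400 TPM at 12 h, against 16.7, 7.03 and 11.1 TPM at 0 h, without overlap (-2.26 ± 0.333 SE, adjusted p = 5.67e-05). 37S S27 (AOL_s00007g521), a mitochondrial-specific protein of the small subunit, stood at 6.88, 0 and 28.4 TPM at 12 h, against 24.2, 26.8 and 34.4 TPM at 0 h. The groups overlapped, and the call (-2.25 ± 0.870 SE, adjusted p = 0.0319) was lost when libraries were scaled (-1.53, adjusted p = 0.186) and without deletion 12 h replicate 2 (-0.94, adjusted p = 0.0691). It was also lost without any 1 of the 3 deletion 0 h libraries (adjusted p between 0.0584 and 0.0801), with a pseudocount of 0.1 TPM (0.0574), without a filter (0.0687) and with the wild-type libraries of a time averaged into 1 (0.109).

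The balance between the directions depended on the scale. With libraries scaled to the same median, 48 members rose (41.5% of all genes) and 2 fell (34.4%), at a median of 1.0 beside 0.10 over all genes, with 16 members changing direction; the 2 that still fell were L28 and L40. The authors' deposited table gave 46 higher (34.5% of all genes) and 1 lower (35.0%), with a median of 0.89. Leaving out deletion 0 h replicate 1 gave 23 higher and 5 lower, and averaging the wild-type libraries of a time into 1 gave 4 lower (58.7% of all genes). The conidiation markers summed to 226 to 263 TPM at 12 h, against 268 to 336 TPM at 0 h, without overlap, with 5 of 6 lower and 1 higher; their part in the result was not tested.

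**Figure D4:**
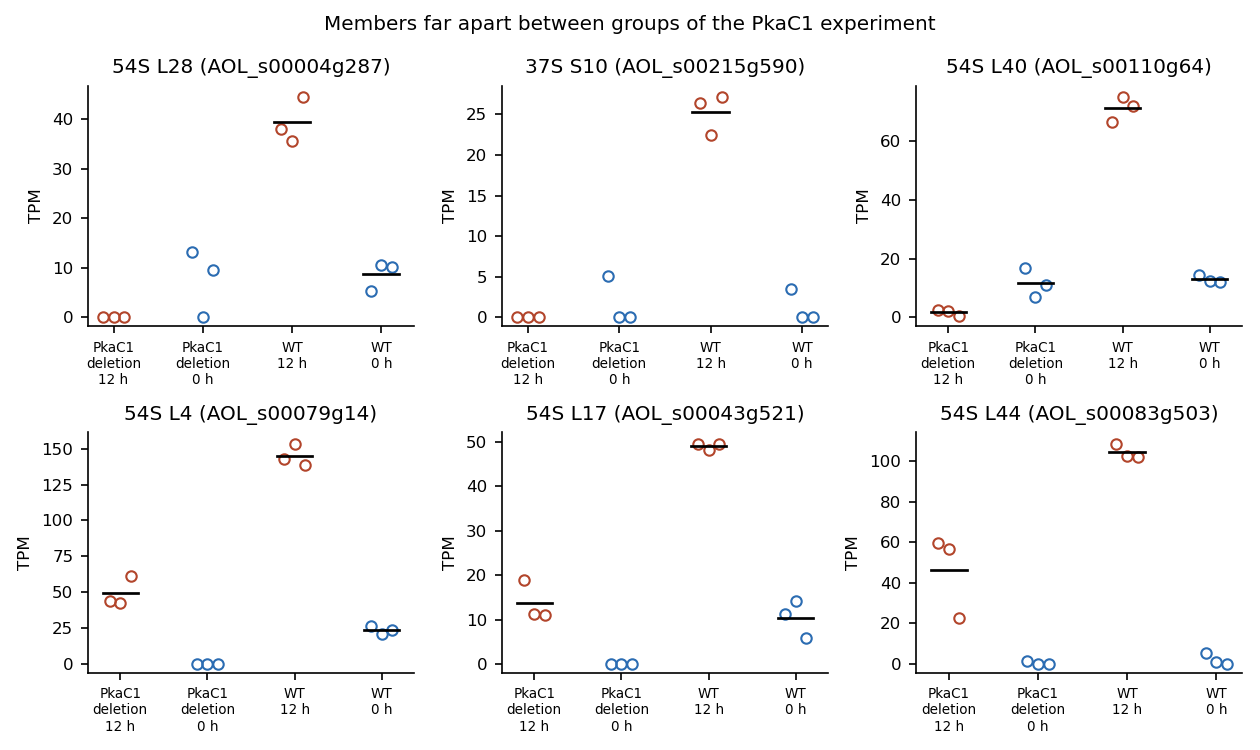
TPM of L28, S10, L40, L4, L17 and L44 in each library of the PkaC1 experiment by group, points being libraries and a line the mean where no library is at 0. L28 and S10 are at 0 in the 3 deletion libraries at 12 h, L4 and L17 in the 3 deletion libraries at 0 h, and all 6 genes are highest in wild type at 12 h.

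The response to induction was then compared between strains, as the change in deletion minus the change in wild type. For PkaC1, 41 of 53 members had a lower response in the deletion and 2 a higher one (limma interaction, adjusted p under 0.05), against 53.9% of all genes lower and 18.0% higher. The median difference was -1.0 over the members and -0.62 over all genes, on the log2 scale. Among large-subunit genes 24 were lower and 2 higher, and of the small subunit 17 were lower. The 2 higher were L4 (adjusted p = 1.28e-07) and L17 (adjusted p = 0.00222), the genes listed at 0 in deletion at 0 h. Lower ones included L40 (-4.63 ± 0.471 SE, adjusted p = 6.96e-06), L28 (adjusted p = 0.00259; 0.0964 with the wild-type libraries of a time averaged into 1), S10 (adjusted p = 0.000871) and L24 (-2.46 ± 0.231 SE, adjusted p = 3.94e-06). For L44 the difference was -0.49 ± 0.863 SE and did not pass (adjusted p = 0.623). L24 overlapped between times in the deletion and not in wild type. The deletion held 28.5, 27.7 and 26.2 TPM at 12 h against 33.3, 24.9 and 26.8 TPM at 0 h, and wild type held 66.7, 77.3 and 69.2 TPM at 12 h against 10.3, 10.9 and 16.9 TPM at 0 h.

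After scaling to the same median, 23 members had a lower response (30.9% of all genes) and 6 a higher one (33.0%), at a median of -0.32 beside 0.00 over all genes, and 11 members changed direction. The 6 were L17, L4, L3, mrp2, S28 and rsm18, the last of which was called lower as deposited (-0.28) and higher when scaled (0.41). With the wild-type libraries of a time averaged into 1, 19 were lower, against 33.3% of all genes, a share near that of the members.

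**Figure D5:**
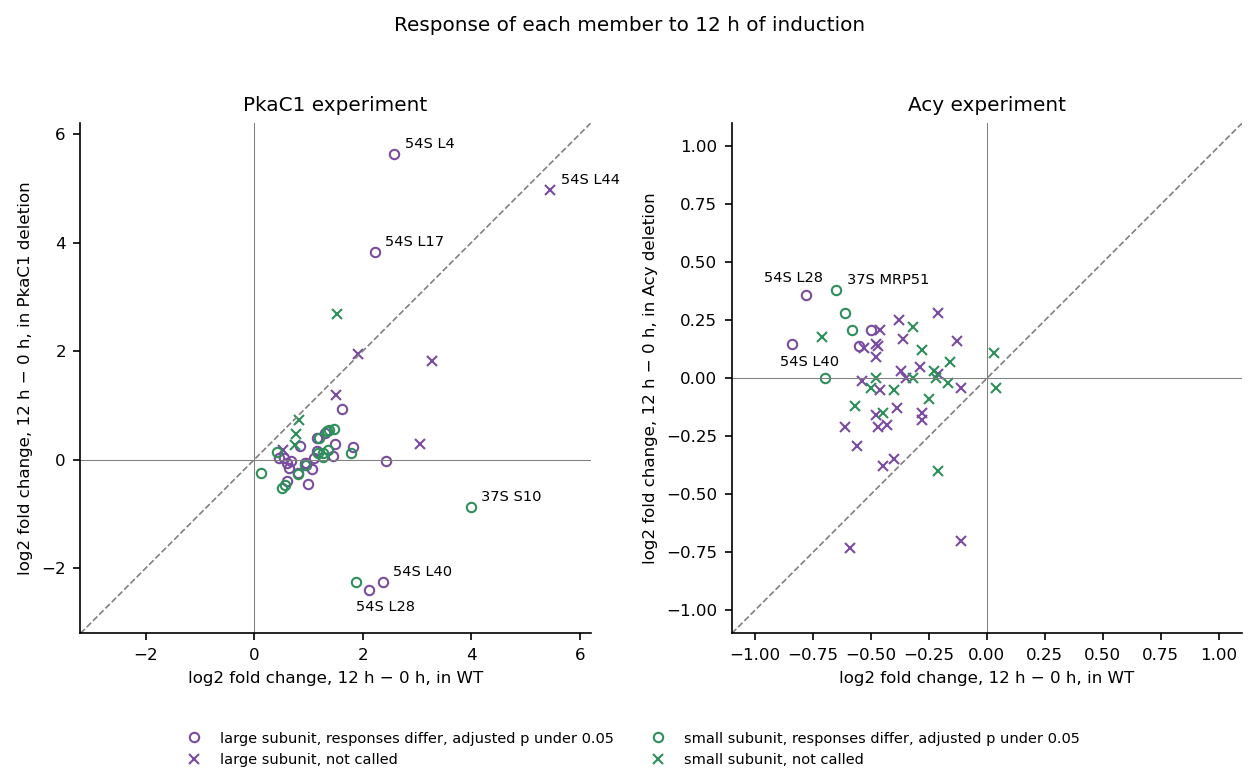
Log2 fold change at 12 h against 0 h of each of the 53 genes in deletion and in wild type (PkaC1 left, Acy right). Circles mark genes whose response differed between strains (limma interaction, adjusted p under 0.05), 43 for PkaC1 and 8 for Acy, and crosses mark the others. Positions of genes listed at 0 in a whole group, such as L4, L17, L28 and S10 in the PkaC1 experiment, depend on the pseudocount.

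Untreated hyphae of the Acy deletion held less of these messages than untreated wild type. Of 53 members, 36 fell and none rose (limma, adjusted p under 0.05), against 15.6% of all genes called lower and 26.6% called higher. The median log2 fold change was -0.61 over the members and 0.11 over all genes, and 52 of 53 estimates were below 0. Of the large subunit 22 of 32 fell (median -0.62), and of the small subunit 14 of 21 (median -0.60). All deletion libraries were below all wild-type libraries for 42 members, against 19.2% of all genes.

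54S L2 (AOL_s00054g251), relative of bacterial L27, which lies by the peptidyl transferase centre, stood at 125, 86.7 and 82.5 TPM in deletion, against 219, 271 and 239 TPM in wild type. The groups lay far apart (-1.32 ± 0.155 SE, adjusted p = 2.38e-05). L40 stood at 58.3, 58.4 and 40.1 TPM in deletion, against 108, 133 and 108 TPM in wild type (-1.15 ± 0.162 SE, adjusted p = 0.000102). 37S S24 (AOL_s00173g78), the MRPS35 relative, stood at 67.5, 60.6 and 42.6 TPM in deletion, against 118, 129.7 and 111 TPM in wild type (-1.08 ± 0.171 SE, adjusted p = 0.000261). For L40 and S24 as well, every deletion library was below every wild-type one. Abundant L31 fell too, at 289 ± 15.5 TPM in deletion and 470.3 ± 16 TPM in wild type (-0.70 ± 0.130 SE, adjusted p = 0.000826). S19 did not pass (-0.30 ± 0.256 SE, adjusted p = 0.376), and neither did S25, the single member with an estimate above 0 (0.15 ± 0.138 SE, adjusted p = 0.41).

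After scaling to the same median, 41 fell (23.1% of all genes) and none rose, at a median of -0.76 beside -0.03 over all genes, and no member changed direction. The authors' deposited table gave 40 lower (19.8% of all genes) and none higher (21%), with a median of -0.72, and at an unadjusted p under 0.05 limma gave none higher. The conidiation markers summed to 84.2 to 110.0 TPM in deletion, against 59.2 to 64.6 TPM in wild type, with 3 of the 5 tested higher; their part in the result was not tested.

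After 12 h of induction, a minority of members passed between Acy deletion and wild type. Of 53, 10 fell and none rose (limma, adjusted p under 0.05), against 13.7% of all genes called lower and 45.5% called higher. The median log2 fold change was -0.24 over the members and 0.39 over all genes. Of the large subunit 8 fell and of the small subunit 2. The libraries did not overlap for 19 members lower and 2 higher in deletion, against 16.4% and 50.4% of all genes.

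37S S28 (AOL_s00109g189), relative of bacterial S15, stood at 101, 105 and 101 TPM in deletion, against 181, 179 and 149 TPM in wild type. The groups did not overlap (-0.72 ± 0.178 SE, adjusted p = 0.00396). L2 stood at 116, 122 and 107 TPM in deletion, against 199, 169 and 192 TPM in wild type, again without overlap (-0.69 ± 0.155 SE, adjusted p = 0.00233). 54S L33 (AOL_s00081g195), relative of bacterial L30, stood at 71.0, 76.2 and 67.9 TPM in deletion, against 125, 117 and 71.7 TPM in wild type. The groups overlapped, and the call (-0.50 ± 0.190 SE, adjusted p = 0.0387) was lost without any 1 of the 3 deletion 12 h libraries, without wild type 12 h replicate 1 or 2 or wild type 0 h replicate 3 (adjusted p between 0.0501 and 0.159 over these 6) and without a filter (0.0603).

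This comparison depended on the scale and on single libraries. With libraries scaled to the same median, 49 fell (29.9% of all genes) and none rose, at a median of -0.75 beside -0.09 over all genes; all 53 estimates were then below 0, 11 of them turned by the scaling. The authors' deposited table gave 42 lower (26.0% of all genes) and none higher (26.2%), with a median of -0.63, and at an unadjusted p under 0.05 limma gave 1 higher. The count of lower calls was 17 without wild type 12 h replicate 3, 2 without wild type 12 h replicate 1, and 4 without wild type 12 h replicate 2 or deletion 12 h replicate 1 or 2. Without deletion 0 h replicate 1 or 2, 1 member was called higher. The conidiation markers summed to 100.4 to 138 TPM in deletion, against 139 to 149 TPM in wild type, without overlap, with 2 of the 5 tested higher and 1 lower; their part in the result was not tested.

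Induction of wild type in the Acy experiment went with lower levels of part of the members as deposited, a result that depended on the scale and on single libraries. Of 53 members, 23 fell and none rose (limma, adjusted p under 0.05), against 19.4% of all genes called lower and 9.2% called higher. Median log2 fold changes were -0.43 over the members and -0.19 over all genes. These were 15 of the large and 8 of the small subunit. Libraries at 12 h were all below those at 0 h for 32 members, against 34.1% of all genes.

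L40 stood at 75.1, 60.3 and 58.9 TPM at 12 h, against 108, 133 and 108 TPM at 0 h, without overlap (-0.84 ± 0.162 SE, adjusted p = 0.00282). L28 stood at 49.0, 36.2 and 33.6 TPM at 12 h, against 68.3, 79.3 and 57.5 TPM at 0 h, also without overlap (-0.78 ± 0.182 SE, adjusted p = 0.00806). 37S S23 (AOL_s00054g784), relative of the GTP-binding protein MRPS29 (DAP3), stood at 28.4, 22.4 and 26.0 TPM at 12 h, against 35.4, 54.2 and 39.1 TPM at 0 h. The groups did not overlap, but the call (-0.71 ± 0.216 SE, adjusted p = 0.0293) was lost when libraries were scaled (-0.48, adjusted p = 0.0742), without a filter (0.0514), and without replicate 2 or 3 of wild type at 12 h (0.106 and 0.0624) or at 0 h (0.107 and 0.0547). After scaling to the same median, 4 members fell (9.29% of all genes) and none rose, at a median of -0.20 beside 0.02: L28, L40, mrp2 and 37S MRP51. Scaling turned the direction of 10 members, and 12 of 53 estimates were then above 0, against 2 as deposited. The authors' deposited table gave 6 lower (12.7% of all genes, near the members' share) and none higher (14.6%), with a median of -0.18, and at an unadjusted p under 0.05 limma gave none higher. The count of lower calls was 6 without wild type 0 h replicate 2, 12 without wild type 0 h replicate 3, and 7 without wild type 12 h replicate 2 or 3. The conidiation markers summed to 139 to 149 TPM at 12 h, against 59.2 to 64.6 TPM at 0 h, with 3 of the 5 tested higher and 2 lower; their part in the result was not tested.

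Within the Acy deletion, no member passed between 12 h and 0 h. By limma none of 53 was called at an adjusted p under 0.05, against 3.66% of all genes called higher and 1.33% called lower, and at an unadjusted p under 0.05, 1 was higher and 3 were lower. No share of all genes was counted at the unadjusted threshold, so these few are not read as a result. The authors' deposited table also called none (4.88% of all genes higher and 3.8% lower), and scaling gave none (2.6% of all genes higher and 2.0% lower). The median log2 fold change was 0.00 over the members, beside 0.09 over all genes. Estimates ran from -0.73 to 0.38, with L2, for example, at 116, 122 and 107 TPM at 12 h against 125, 86.7 and 82.5 TPM at 0 h (0.25 ± 0.155 SE, adjusted p = 0.36).

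In the Acy deletion the response to induction was higher than in wild type for 8 members and lower for none. This was by limma interaction at an adjusted p under 0.05, against 14.2% of all genes higher and 5.1% lower. The members' count of higher responses was thus near the share of all genes. The median difference was 0.35 over the members and 0.27 over all genes. At an unadjusted p under 0.05 limma gave 20 members higher and none lower, and 5 higher and none lower after scaling. The share of all genes at that unadjusted threshold was not counted. The largest were L28 (1.14 ± 0.258 SE, adjusted p = 0.0128), MRP51 (AOL_s00054g26; 1.04 ± 0.247 SE, adjusted p = 0.0158) and L40 (0.99 ± 0.229 SE, adjusted p = 0.0147). MRP51, which in S. cerevisiae is needed to translate mitochondrial messages of cytochrome oxidase, stood at 50.6, 50.7 and 35.6 TPM in deletion at 12 h, against 35.5, 41.3 and 27.4 TPM at 0 h. In wild type it stood at 42.2, 36.2 and 45.9 TPM at 12 h, against 63.5, 67.8 and 64.9 TPM at 0 h. The times overlapped in the deletion and not in wild type. The other 5 were S10, S24, 54S L6, mrp2 and 54S L12, with differences between 0.69 and 0.89. With libraries scaled to the same median, L28, MRP51 and L40 remained called (5.34% of all genes higher) and none was lower (9.76%), with differences of 0.78, 0.68 and 0.63, and the median was -0.01. Leaving out 1 library gave between 3 and 13 higher calls, 3 without deletion 12 h replicate 2 and 13 without deletion 0 h replicate 1. It gave 4 without deletion 12 h replicate 1 or replicate 2 of either wild-type group, and 5 without deletion 0 h replicate 3 or replicate 3 of either wild-type group.

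Set side by side, 50 members rose with induction of wild type in the PkaC1 experiment (28.1% of all genes higher) and 23 fell in the Acy experiment (19.4% of all genes lower). Scaled to the same median these counts were 52 higher (37.5%) and 4 lower (9.29%), and the authors' deposited tables gave 52 higher (38.6%) and 6 lower (12.7%), so the fall in the Acy experiment depended on the scale. S24, for example, stood at 142, 144 and 145 TPM at 12 h against 51.8, 59.4 and 53.4 TPM at 0 h in wild type of the PkaC1 experiment, and at 88.8, 70.1 and 81.8 TPM against 118, 129.7 and 111 TPM in wild type of the Acy experiment. For S24 the libraries of the 2 times did not overlap in either experiment. Untreated wild type summed to 2946 to 3032 TPM in the PkaC1 experiment and 7314 to 8686 TPM in the Acy experiment. The difference between the experiments was not tested, since their tables were normalized separately and strain sets, libraries and experiment cannot be told apart.

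The balance of the subunits also moved. The ratio of summed large-subunit to small-subunit TPM ran from 1.15 to 1.26 in PkaC1 deletion at 12 h, 1.05 to 1.16 in deletion at 0 h, 1.38 to 1.42 in wild type at 12 h and 1.19 to 1.24 in wild type at 0 h. The Acy ratios ran from 1.41 to 1.55 in deletion at 12 h, 1.39 to 1.63 in deletion at 0 h, 1.5 to 1.59 in wild type at 12 h and 1.62 to 1.66 in wild type at 0 h. Induced wild type had the highest ratio in the PkaC1 experiment, clear of all other groups. The sums of that experiment include the genes listed at 0 in some library, most of them of the large subunit. The ratio was not computed without these genes. The Acy deletion at 0 h overlapped both wild-type groups.

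Cytosolic ribosomal proteins, the 75 genes of the ribosome outside mitochondria, did not keep a fixed ratio to the mitochondrial ones. The members' sum was 6.39 to 6.71% of the cytosolic sum in PkaC1 deletion at 12 h, 8.33 to 8.85% in deletion at 0 h, 6.95 to 7.26% in wild type at 12 h and 12.4 to 12.8% in wild type at 0 h. For Acy it was 7.50 to 8.11% in deletion at 12 h, 6.85 to 7.86% in deletion at 0 h, 10.2 to 12.4% in wild type at 12 h and 8.43 to 9.36% in wild type at 0 h. Untreated wild type thus had the highest share in the PkaC1 experiment and induced wild type in the Acy experiment. For PkaC1 all 75 cytosolic genes rose with induction of wild type (median 1.91) and 73 fell in deletion at 12 h (median -0.97), while at 0 h 41 rose and none fell (median 0.37), where 14 mitochondrial ones fell and 1 rose, against 40.7% of all genes higher and 24% lower. The 14 mitochondrial genes that fell were near the share of all genes. At 0 h the cytosolic counts depended on the scale, with 18 higher and 5 lower when libraries were scaled to the same median (median 0.14) and 23 higher and 6 lower in the authors' deposited table (median 0.14). In untreated Acy deletion 7 of 75 fell (median -0.30), against 36 of 53 mitochondrial ones and 15.6% of all genes. Scaling gave 21 lower cytosolic genes, and 13 were lower in the authors' deposited table. The difference between the 2 ribosomes was not tested.

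Other genes of mitochondrial gene expression, listed by annotation, gave the following counts, to be read against 28.1% of all genes called higher and 41.6% lower with induction of PkaC1-experiment wild type, 52.0% lower and 18.9% higher in PkaC1 deletion at 12 h, and 15.6% lower and 26.6% higher in untreated Acy deletion. Of 6 mitochondrial translation factors, 4 rose and 1 fell with induction of PkaC1-experiment wild type, 5 fell in PkaC1 deletion at 12 h and 5 fell in untreated Acy deletion. Elongation factor Tu (AOL_s00054g433), which brings aminoacyl-tRNA to the ribosome, stood at 531 ± 12.9 TPM in that wild type at 12 h and 248 ± 10.9 TPM at 0 h (1.1 ± 0.0807 SE, adjusted p = 2.16e-07). Elongation factor G (AOL_s00004g229), which moves the ribosome along the message, stood at 15.6 ± 5.72 TPM in untreated Acy deletion and 45.3 ± 9.14 TPM in wild type (-1.53 ± 0.249 SE, adjusted p = 0.000325). Of 12 mitochondrial aminoacyl-tRNA synthetases tested, 10 rose with induction of wild type and 11 fell and 1 rose in PkaC1 deletion at 12 h, and of 13 tested in the Acy experiment 9 fell in untreated deletion. All 5 genes for mitochondrial RNA polymerase and message-specific factors rose with induction of wild type and fell in PkaC1 deletion at 12 h, among them pet127 (AOL_s00215g574) at 10.8 ± 2.23 TPM in deletion and 44.3 ± 1.22 TPM in wild type (-1.96 ± 0.164 SE, adjusted p = 1.37e-06). In untreated Acy deletion 3 of these 5 fell. Of 7 genes of ribosomal RNA modification, ribosome assembly and membrane insertion, 5 rose and 1 fell with induction of wild type, 6 fell in PkaC1 deletion at 12 h and 2 fell in untreated Acy deletion. Of 15 genes of mitochondrial import and chaperones tested, 14 rose with induction of wild type and 14 fell and 1 rose in PkaC1 deletion at 12 h, and of 17 tested in the Acy experiment 7 fell in untreated deletion. Scaled to the same median, the lower calls in PkaC1 deletion at 12 h were 3 translation factors, 9 synthetases, 5 polymerase and message-specific factors, 3 genes of modification and assembly and 9 of import, against 32.1% of all genes.

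By locus tag, 54S L38 (AOL_s00043g479) neighbours AOL_s00043g480, one of the genes matched to a PKA catalytic subunit, and 54S L35 (AOL_s00054g420) neighbours yml6 (AOL_s00054g421). L38 differed between PkaC1 deletion and wild type by -0.87 at 12 h (adjusted p = 0.000797) and by -0.28 at 0 h (adjusted p = 0.173). L35 fell in PkaC1 deletion at both times, by 1.58 at 12 h (adjusted p = 2.09e-06) and 0.38 at 0 h (adjusted p = 0.0333), and yml6 fell by 1.35 at 12 h (adjusted p = 6.35e-06).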

How the data were processed

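Hyphae of 8 groups with 3 libraries each were sequenced as RNA. Per the submitters' processing notes HISAT2 and StringTie were used, without versions. The genome build is not given in the sources used here. Deposited values are TPM per gene, computed by the authors separately for each experiment, with the coding length beside them. For pairs of groups the authors also deposited log2 fold changes with p-values and adjusted p-values, whose test the sources used here do not name. The 8 columns of group means made by the authors were not used.

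The 53 members and the related gene lists were chosen with earlier results of these data known. A gene was tested if 3 or more of an experiment's 12 libraries reached 1 TPM, which kept 8977 genes for PkaC1 and 9617 for Acy. log2(TPM + 1) of the deposited values was fitted with limma 3.58.1 in R 4.3.3 with a mean-variance trend, 4 groups per experiment, and p-values were adjusted over all genes tested by Benjamini and Hochberg. Fold changes on this scale understate the change of low genes. Any member could be named; values in full were given for up to 3 called members with the largest change in each direction of a comparison, the 5 highest and 3 lowest by mean TPM, and those listed at 0 in a whole group, and a few others were named after their values were seen. The fit was tested on simulated data with known changes between deletion and wild type at 12 h. Of changes of 0.5 on the log2 scale it called 49% for PkaC1 and 21% for Acy. Of changes of 1.0 it called 89% for PkaC1 and 68% for Acy. In the simulation only a small part of the genes changed, while a large part was called in the real comparisons at 12 h. The adjustment of p-values was therefore stricter in the simulation. These shares do not give the power of the real tests.

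Alternatives were a pseudocount of 0.1 TPM, no filter, a filter at 5 TPM, scaling of all libraries to the same median TPM, a replicate block, wild-type libraries of the PkaC1 experiment averaged into 1 per time, and each library left out. Same-numbered libraries deviated together in all 3 pairs only for Acy deletion at 12 h and 0 h, with correlations of 0.209, 0.137 and 0.435. Figures were drawn with matplotlib 3.10.9.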

Additional observations from a re-analysis of the deposited data

Results flagged for a closer look

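These results were singled out because the response to induction differed between deletion and wild type by a test of the difference itself, the interaction term in limma. In the PkaC1 experiment 2 members had a higher and 41 a lower response in the deletion, against 18.0% and 53.9% of all genes. Scaled to the same median, 6 were higher and 23 lower, against 33.0% and 30.9% of all genes. L4 (adjusted p = 1.28e-07) and L17 (adjusted p = 0.00222), both listed at 0 in untreated deletion, were the higher ones. Lower ones included S10 (adjusted p = 0.000871) and L28 (adjusted p = 0.00259), both listed at 0 in induced deletion, so that no fold is given for these 4 genes. Their p-values depend on the pseudocount as well. For L40, listed above 0 in every library, the interaction was -4.63 on the log2(TPM + 1) scale.

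In the Acy experiment 8 members had a higher and 0 a lower response in the deletion, against 14.2% and 5.1% of all genes, so the count of higher responses was near the share of all genes. Scaling left 3 higher, against 5.34% of all genes. The interaction was 1.14 for L28, 1.04 for MRP51 and 0.99 for L40.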

How the results depend on the processing

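With libraries scaled to the same median TPM, 33 members were called lower in PkaC1 deletion at 0 h (33.1% of all genes). At 12 h 45 members were lower (32.1% of all genes) and 1 was higher (31.8%). With induction of the deletion 48 were higher (41.5%) and 2 lower (34.4%). The response was higher in the deletion for 6 (33.0%) and lower for 23 (30.9%). In the Acy experiment scaling gave 49 lower at 12 h (29.9% of all genes). It gave 4 lower with induction of wild type (9.29%) and 3 with a higher response (5.34%). With the PkaC1-experiment wild-type libraries averaged into 1 per time, calls fell to 3 lower at 0 h, 4 lower with induction of the deletion, 30 higher with induction of wild type and 19 with a lower response. The cause was not tested. Leaving out 1 library gave 9 to 25 lower and 1 to 5 higher in PkaC1 deletion at 0 h, 14 to 23 higher and 5 to 8 lower with induction of that deletion, 0 to 1 higher and 2 to 17 lower in Acy deletion at 12 h, 6 to 27 lower with induction of Acy-experiment wild type, and 3 to 13 with a higher response in the Acy deletion. The share of all genes called without 1 library is not given, so these ranges do not separate the members from all genes. The replicate block changed the call of none of the 33 named results and moved no count by over 1.5 times, for example 16 lower in PkaC1 deletion at 0 h and 50 at 12 h. Of the 33 named results 30 kept their call with a pseudocount of 0.1, 29 without a filter, 33 with a minimum of 5 TPM and 31 when scaled, and none reversed. With wild type averaged, 16 of the 21 named results of the PkaC1 experiment kept theirs, and leaving out 1 library lost the call in 18 of 396 refits, spread over 5 of the 33 results. Depth is unknown, so no limit from counting can be given.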

Other observations

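A further 9 genes carry an orthology name, a domain or a differently spelled name of a mitochondrial ribosomal protein and were not among the 53; they were picked after the files were seen. With induction of wild type in the PkaC1 experiment 7 of 9 rose and none fell (median log2 fold change 0.99), and in PkaC1 deletion at 12 h all 9 fell (median -0.77), against 28.1% of all genes higher with that induction and 52.0% lower in that deletion. In untreated PkaC1 deletion 1 rose and 2 fell. In untreated Acy deletion 6 of 9 fell (median -0.69; 15.6% of all genes), and with induction of wild type of the Acy experiment 4 fell (19.4%).

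AOL_s00007g497, the L1 relative, averaged 33.2 TPM in PkaC1 deletion and 104 TPM in wild type at 12 h (-1.62, limma adjusted p = 1.39e-06). AOL_s00112g16, named S16, averaged 49.3 TPM in PkaC1 deletion and 79.6 TPM in wild type at 12 h (-0.69, adjusted p = 0.0012). It averaged 79.6 TPM in that wild type at 12 h and 36.5 TPM at 0 h (1.11, adjusted p = 3.07e-05). Under Acy S16 averaged 87.7 TPM in untreated deletion and 82.8 TPM in untreated wild type (0.08, adjusted p = 0.756). AOL_s00075g121, with the domain of L20, averaged 34.3 TPM in untreated PkaC1 deletion and 15.9 TPM in wild type (1.08, adjusted p = 3.82e-05).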
